A study of Homo sapiens with 12 samples.

Results

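The aryl hydrocarbon receptor (AHR) and 5 genes tied to it, ARNT, AHRR, CYP1A1, CYP1B1 and TIPARP, were followed in HK-2, a human proximal tubule epithelial line that has been immortalized, after exposure to CsA or to its vehicle. They are 6 of 19775 genes that a probe set names alone. Every probe set annotated to exactly 1 of these 6 genes was taken, which gave 15 of the 54675 probe sets on the array: 7 for ARNT, 4 for CYP1B1 and 1 each for AHR, AHRR, CYP1A1 and TIPARP. The rule takes probe sets by gene name. The 12 arrays formed 4 groups of 3: cells given CsA for 12 h, vehicle control for 12 h, CsA for 48 h and vehicle control for 48 h. CsA is read here as cyclosporin A, the calcineurin-inhibiting immunosuppressant. Neither its dose nor the vehicle is given in the sources used here. All groups were 1 cell line in 1 laboratory, grown in the same hormone-supplemented medium with EGF, hydrocortisone, insulin and transferrin and treated when nearly confluent. The labels call the replicates biological without naming separate cultures, so the p-values measure the spread between these samples.

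AHR is a transcription factor of the bHLH-PAS family that waits in the cytosol, bound to HSP90 and other chaperones, until a small molecule such as a dioxin, a polycyclic hydrocarbon or a tryptophan metabolite binds it. It then enters the nucleus, pairs with ARNT, and the pair binds DNA at the core sequence GCGTG. CYP1A1 and CYP1B1, cytochrome P450 enzymes that oxidize aromatic compounds, are classical targets of the pair. AHRR and TIPARP are targets too, and each holds the receptor back: AHRR competes for ARNT, and TIPARP is a mono-ADP-ribosyltransferase that marks AHR for breakdown. ARNT also serves the hypoxia-inducible factors, so it is not specific to AHR.

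The promoter windows of 3 targets are shown because these genes behaved differently, CYP1A1 and AHRR lying at the bottom of the scale and TIPARP being bright. The sequences are RefSeq's on GRCh38.p14, 250 bases before to 50 after a transcript start, read along the gene, with GCGTG on either strand (CACGC when read on the other) in capitals.
CYP1A1, chr15:74725479-74725778, minus strand: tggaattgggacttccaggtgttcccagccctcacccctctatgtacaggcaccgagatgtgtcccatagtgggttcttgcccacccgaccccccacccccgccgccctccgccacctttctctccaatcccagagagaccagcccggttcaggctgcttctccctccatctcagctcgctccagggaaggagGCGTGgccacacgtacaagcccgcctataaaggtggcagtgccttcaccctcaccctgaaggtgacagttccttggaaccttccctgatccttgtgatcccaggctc
AHRR, first listed start, chr5:321464-321763, plus strand: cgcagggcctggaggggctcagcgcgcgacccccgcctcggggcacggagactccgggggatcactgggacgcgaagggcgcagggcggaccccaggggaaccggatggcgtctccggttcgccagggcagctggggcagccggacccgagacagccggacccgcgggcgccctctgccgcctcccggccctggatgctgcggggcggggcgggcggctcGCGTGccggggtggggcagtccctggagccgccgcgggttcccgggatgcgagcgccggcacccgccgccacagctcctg
TIPARP, first listed start, chr3:156674340-156674639, plus strand: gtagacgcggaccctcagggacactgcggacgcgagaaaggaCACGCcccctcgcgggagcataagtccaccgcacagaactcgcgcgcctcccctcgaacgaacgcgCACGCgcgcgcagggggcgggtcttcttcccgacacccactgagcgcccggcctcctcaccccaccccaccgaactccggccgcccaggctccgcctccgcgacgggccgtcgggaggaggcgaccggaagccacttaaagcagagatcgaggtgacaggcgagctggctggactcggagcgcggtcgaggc
The core was present once in the CYP1A1 window, 57 bases before the start, once in the AHRR window, 30 bases before it, and 2 times in the TIPARP window, 208 and 142 bases before it. It occurred in 36.5% of all 35116 promoter windows in the table. The longer form TNGCGTG, which contains the core, was found in the AHRR window and in 5.51% of all windows. The windows of the other 2 TIPARP starts held no core, the other AHRR start held 2, AHR held 1 and ARNT none. A match is a description of the letters, and the table held no window for CYP1B1.

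Values are log2 probe set summaries, so a difference of 1 is a 2-fold change, and values near 2 to 3 are the floor of the scale. A probe set was tested when it exceeded 4 on at least 3 of the 12 arrays, which 10 of the 15 did: the AHR and TIPARP probe sets, 5 of 7 for ARNT and 3 of 4 for CYP1B1. Tests were made in limma with Benjamini-Hochberg adjustment over all 20625 tested probe sets. Levels of different probe sets are not comparable with each other. As a check of the cells, 8 of 18 proximal tubule and epithelial markers were measured, among them PAX8, KRT8, KRT18, CDH6 and CDH16, while LRP2, CUBN, AQP1, SLC34A1 and HNF4A had no passing probe set. Of the other cell types' markers, 5 of 7 fibroblast and mesangial ones (COL1A1, LUM, DCN, ACTA2 and PDGFRB) and 2 of 6 hepatocyte ones (CYP2E1 and SERPINA1) passed, and none of the 5 endothelial and 6 leukocyte ones did. The hybridization controls of replicate 3 with CsA at 48 h had a median of 7.38, against 9.89 to 11.4 on the other arrays, and replicate 1 of the 48 h groups had low poly-A control values, 5.04 with CsA and 4.32 in the control. The ACTB 3' minus 5' difference, a control for RNA quality, was 1.22 on CsA replicate 3 and 1.33 on control replicate 1 at 48 h. On the other arrays it was 0.73 to 0.98. The same difference for GAPDH was 0.14 on CsA replicate 3 at 48 h, against -0.11 to 0.02 elsewhere. The median SD of a probe set within a group was 0.22 with CsA at 48 h and 0.17 in the 48 h control, against 0.12 in each 12 h group.

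CYP1A1 was at the floor on every array, with and without CsA. Its 1 probe set, 205749_at, read 2.02 to 2.04 over all 12 arrays, a place below which only 8.76% to 9.04% of the array's probe sets lay. AHRR, by 229354_at, read 2.17, 2.18 and 2.31 with CsA at 48 h, against 2.20, 2.16 and 2.16 in the 48 h control, and 2.16 to 2.19 on the 6 arrays at 12 h. These 2 genes were not detected above the floor in any group, which does not show that their transcripts were absent, and no fold is given.

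CYP1B1 was well above the floor in every group, and its 3 bright probe sets were lower with CsA at 48 h on every array. On 202435_s_at the values were 7.27, 7.17 and 7.01 with CsA at 48 h, against 8.85, 8.91 and 8.68 in the 48 h control. The groups did not overlap, the highest CsA array being 7.27 and the lowest control array 8.68. CYP1B1 fell by 1.66 on the log2 scale on this probe set (SE 0.12, 95% interval -1.96 to -1.36, limma adjusted p = 0.0408), which is 3.16-fold lower with CsA. Of the 10 tested member probe sets it was the 1 past the threshold in the fit of the 48 h arrays, where 0.0388% of all tested probe sets were called, 8 of them, each lower with CsA. In bulk samples, fewer cells with a transcript and less transcript per cell cannot be told apart.

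The other bright CYP1B1 probe sets ran the same way, though they read the same transcript and are not independent evidence. 202436_s_at had 8.57, 8.79 and 8.36 with CsA at 48 h, against 9.70, 10.09 and 10.02 in the control. Its difference was -1.36 (SE 0.17, limma adjusted p = 0.0662). 202437_s_at had 8.59, 9.17 and 8.35 with CsA, against 9.76, 10.03 and 9.97 in the control, a difference of -1.21 (SE 0.23, limma adjusted p = 0.0842). In both, each CsA array was below each control array. Across the 12 arrays the 3 probe sets correlated at 0.969 to 0.990, as a description of 1 gene read 3 times. The fourth CYP1B1 probe set, 202434_s_at, stayed between 2.86 and 3.06 on all arrays and showed nothing of this pattern.

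TIPARP, bright in all groups, was also lower with CsA at 48 h. Its probe set 212665_at read 10.73, 10.85 and 10.97 with CsA at 48 h, against 11.89, 11.88 and 11.68 in the 48 h control. The groups did not overlap, the highest CsA array being 10.97 and the lowest control array 11.68. The difference was -0.97 (SE 0.12, 95% interval -1.26 to -0.67), or 1.95-fold lower, with a limma adjusted p of 0.0662 in the fit of the 48 h arrays. Of the 10 tested member probe sets, 4 had all CsA arrays below all controls at 48 h, namely the 3 of CYP1B1 and that of TIPARP, against 15% of all tested probe sets, and none had all CsA arrays above, against 12.5%. Markers moved at this time too, in the fit of all 12 arrays described next. Of 8 measured epithelial markers 3 were called lower (CDH6, PDZK1 and CDH16) and 1 higher (PAX8). Of 5 measured fibroblast and mesangial markers 2 were called lower (COL1A1 and LUM). Over all genes, on brightest probe sets, that fit called 8.64% lower and 4.92% higher. The fit of the 48 h arrays alone called none of these markers. The mean over the epithelial markers was 11.96 to 12.02 on the CsA arrays and 12.27 to 12.40 on the control arrays at 48 h. The mean over the fibroblast and mesangial markers was 6.31 to 6.84 with CsA and 6.95 to 7.40 in the control. COL1A2 and COL3A1 had no passing probe set. The part of these markers in the CYP1B1 and TIPARP results was not tested.

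The calls differed between the fit of the 48 h arrays and the fit of all 12 arrays. With all 12 arrays in 1 fit, 8.18% of all tested probe sets were called lower and 4.52% higher at 48 h. In that fit all 4 were called: limma adjusted p = 0.000976 for TIPARP and 0.00677, 0.0152 and 0.0190 for CYP1B1 on 202435_s_at, 202436_s_at and 202437_s_at. The SE of CYP1B1 was larger there, 0.29 on 202435_s_at, 0.29 on 202436_s_at and 0.27 on 202437_s_at, while that of TIPARP was smaller, 0.09. On 202435_s_at the CYP1B1 arrays were wider at 12 h (SD 0.61 with CsA and 0.45 in the control) than at 48 h (SD 0.13 and 0.12). The unadjusted limma p was higher in the fit of all 12 arrays on 202435_s_at (0.000148, against 8.19e-06 in the 48 h arrays) and 202436_s_at (0.000679, against 0.000154). It was lower there on 202437_s_at (0.00110, against 0.00155) and for TIPARP (7.24e-07, against 0.000175). Why the calls differ was not tested. The CYP1B1 call on 202435_s_at in the fit of the 48 h arrays alone was lost without CsA replicate 1 (-1.72, limma adjusted p = 0.226), CsA replicate 2 (-1.67, 0.120), CsA replicate 3 (-1.59, 0.0537), control replicate 1 (-1.64, 0.218) or control replicate 2 (-1.61, 0.227), and held without control replicate 3 (-1.73, 0.0497). It was also lost without a filter on dim probe sets (limma adjusted p = 0.0640).

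**Figure D1:**
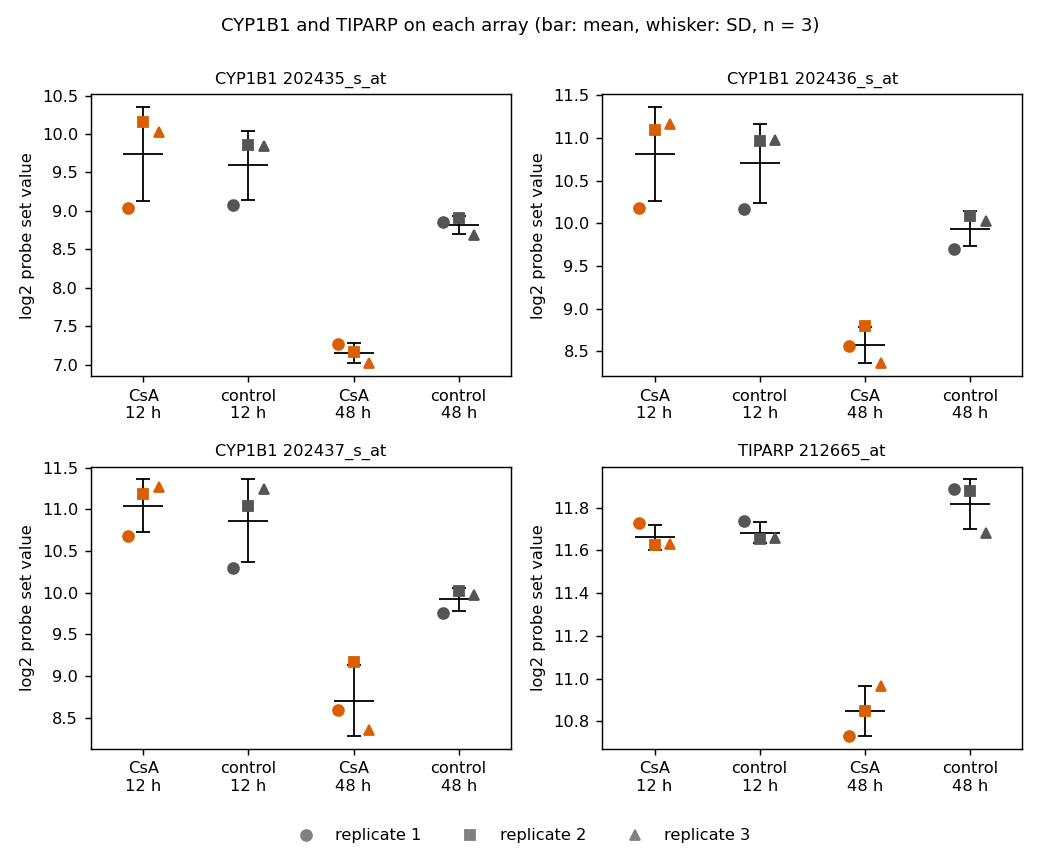
Log2 values of the 3 bright CYP1B1 probe sets and of TIPARP on each of the 12 arrays, by group, with replicate numbers as symbols, bars for means and whiskers for the SD (n = 3). In each panel the 3 CsA arrays at 48 h lie below all other arrays.

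At 12 h neither gene was separated by CsA. CYP1B1 on 202435_s_at read 9.03, 10.15 and 10.03 with CsA at 12 h, against 9.08, 9.85 and 9.85 in the 12 h control. Replicate 1 was the low array in both groups, so arrays with the same number moved together. The difference was 0.14 (SE 0.36, 95% interval -0.73 to 1.02), and on 202436_s_at and 202437_s_at it was 0.11 (SE 0.34) and 0.18 (SE 0.28). Taking CsA minus control within each replicate number, 202437_s_at gave 0.38, 0.14 and 0.02, and with that number as a block its limma adjusted p was 0.477. TIPARP had 11.73, 11.63 and 11.63 with CsA at 12 h, against 11.74, 11.65 and 11.66 in the control, a difference of -0.02 (SE 0.06, 95% interval -0.18 to 0.13). None of the 10 member probe sets was called at 12 h by limma, where 0% of all tested probe sets were called, 6.5% had an unadjusted p under 0.05, and the fit of all 12 arrays called 0.00485%, 1 probe set that is no member. The CsA and control arrays overlapped at 12 h on all 10, while 6.2% of all tested probe sets had every CsA array higher and 5.78% every CsA array lower.

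The 48 h effect of CsA on TIPARP differed from its 12 h effect. The difference of the effects was -0.94 (SE 0.13, limma adjusted p = 0.0348), the 1 called among the 10 member probe sets, against 0.276% of all tested probe sets called in this direction and 0.0436% in the other. The TIPARP call held with array weights by group (adjusted p = 0.0391) and with the replicate number within each time as a block (0.0491). Leaving out 1 array ended the call in 9 of 12 cases: without CsA at 12 h replicate 1 (-0.91), 2 (-0.96) or 3 (-0.96), control at 12 h replicate 1 (-0.97), 2 (-0.93) or 3 (-0.93), CsA at 48 h replicate 1 (-0.89), or control at 48 h replicate 1 (-0.91) or 2 (-0.91), with limma adjusted p up to 0.110. For CYP1B1 the difference of the effects was -1.80 (SE 0.40, limma adjusted p = 0.0805) on 202435_s_at, -1.47 (SE 0.40, 0.136) on 202436_s_at and -1.40 (SE 0.39, 0.137) on 202437_s_at. With the replicate number within each time as a block, which takes out the low replicate 1 at 12 h, the CYP1B1 values on 202435_s_at and 202436_s_at passed (adjusted p = 0.0123 and 0.0267) and 202437_s_at did not (0.0528). For both genes that block also pairs the 48 h arrays by number. Same-numbered arrays correlated at only -0.149 to 0.306 at 48 h, so the pairing there rests on the labels' numbers alone.

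Without CsA, CYP1B1 fell with time in culture, and TIPARP gave no call. Control CYP1B1 on 202437_s_at had the 48 h values above, 9.76 to 10.03, against 10.30, 11.05 and 11.24 at 12 h, a difference of -0.94 (SE 0.25, limma adjusted p = 0.0272). It was -0.78 (SE 0.23, adjusted p = 0.0361) on 202435_s_at and -0.77 (SE 0.24, adjusted p = 0.0498) on 202436_s_at. All control arrays at 48 h lay below those at 12 h on each of these probe sets, as on 26.9% of all tested. Time changed much of the transcriptome: 18.8% of all tested probe sets were called lower and 20.4% higher in the 48 h control, so 3 of 10 members called lower is read against that share. Each of these 3 calls was lost when any 1 control array other than replicate 1 at 12 h was left out, with values of -0.63 to -0.996, and without replicate 1 at 12 h the values were -1.03 to -1.22. In the fit of all 12 arrays 202437_s_at kept its call, while the limma adjusted p was 0.0530 on 202435_s_at and 0.0562 on 202436_s_at. TIPARP in the 48 h control was higher than at 12 h by 0.13 (SE 0.09, limma adjusted p = 0.283).

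The order of the levels was not the same for the 2 genes. The CYP1B1 means on 202437_s_at were 8.71 ± 0.42 with CsA at 48 h, 9.92 ± 0.14 in the 48 h control, 10.86 ± 0.50 in the 12 h control and 11.04 ± 0.32 with CsA at 12 h (SD, n = 3 each). Among neighbours in that order, the 12 h groups overlapped and the others did not. The TIPARP means were 10.85 ± 0.12 with CsA at 48 h, 11.66 ± 0.06 with CsA at 12 h, 11.68 ± 0.05 in the 12 h control and 11.82 ± 0.12 in the 48 h control. For TIPARP only CsA at 48 h stood apart from its neighbour, and the other 3 groups overlapped.

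The receptor itself showed no called difference. AHR, by 202820_at, had 9.37, 9.58 and 9.28 with CsA at 48 h, against 9.53, 9.05 and 8.90 in the 48 h control. Control replicate 1 lay among the CsA arrays, so the groups overlapped. The difference was 0.25 (SE 0.19, 95% interval -0.22 to 0.72, limma adjusted p = 0.530). At 12 h AHR read 9.52, 9.43 and 8.96 with CsA, against 9.33, 9.30 and 9.06 in the control, a difference of 0.07 (SE 0.17, 95% interval -0.33 to 0.48). Between the controls, 48 h minus 12 h was -0.07 (SE 0.18). A p that misses the threshold does not show that AHR was unchanged, and the interval at 48 h reaches a rise of 0.72.

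ARNT, the partner of AHR, gave no call on any of its 5 tested probe sets, and these did not point one way at 48 h. The brightest, 218221_at, had 8.56, 8.62 and 9.05 with CsA at 48 h, against 8.87, 9.02 and 9.10 in the control, a difference of -0.25 (SE 0.16, limma adjusted p = 0.441). CsA replicates 1 and 2 were below all control arrays and replicate 3, the array with the low hybridization control, was among them. 218222_x_at, whose suffix marks probes that may match other transcripts, ran the other way: 7.71, 7.33 and 7.91 with CsA, against 6.88, 7.41 and 7.32 in the control, a difference of 0.44 (SE 0.21, adjusted p = 0.314).

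The groups overlapped on the remaining ARNT probe sets too. 231016_s_at had 5.43, 6.55 and 4.96 with CsA at 48 h, against 6.07, 6.65 and 6.67 in the control, a difference of -0.82 (SE 0.42, limma adjusted p = 0.349), and its CsA arrays were spread from 4.96 to 6.55. The difference at 48 h was 0.08 (SE 0.21) on 210828_s_at and 0.01 (SE 0.26) on 230619_at. At 12 h all 5 lay between -0.00 and 0.11. The last 2, 233714_at and 233724_at, stayed at 2.29 to 2.34 and 3.07 to 3.17 on all arrays and were not tested. With array weights 1 ARNT value was called, the difference of the effects on 218221_at (-0.54, limma adjusted p = 0.0414), which was -0.36 (adjusted p = 0.383) without weights and had adjusted p of 0.0769 to 0.713 under the other alternatives.

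**Figure D2:**
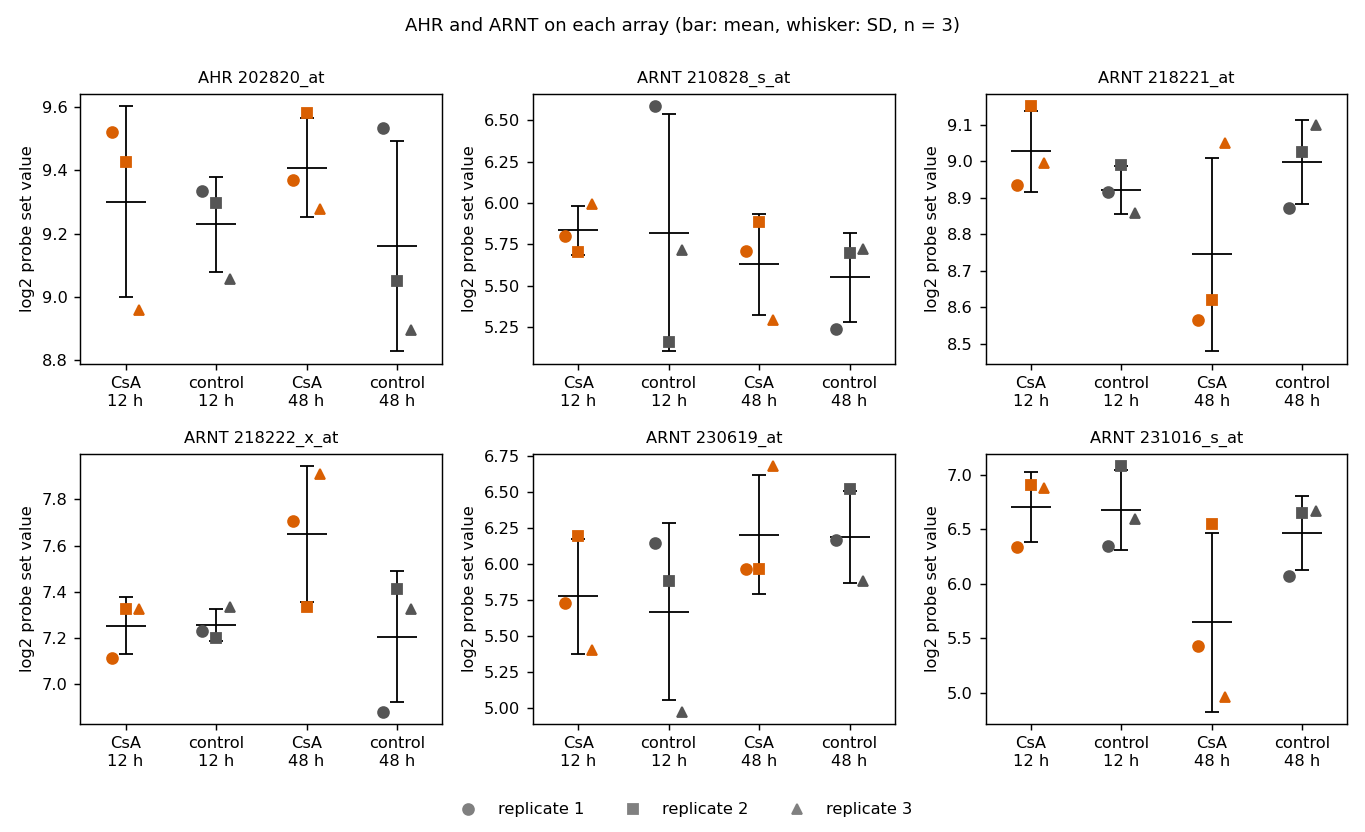
Log2 values of AHR and of the 5 tested ARNT probe sets on each array, by group, with replicate numbers as symbols, bars for means and whiskers for the SD (n = 3). CsA and control arrays overlap at both times on each of these 6 probe sets.

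**Figure D3:**
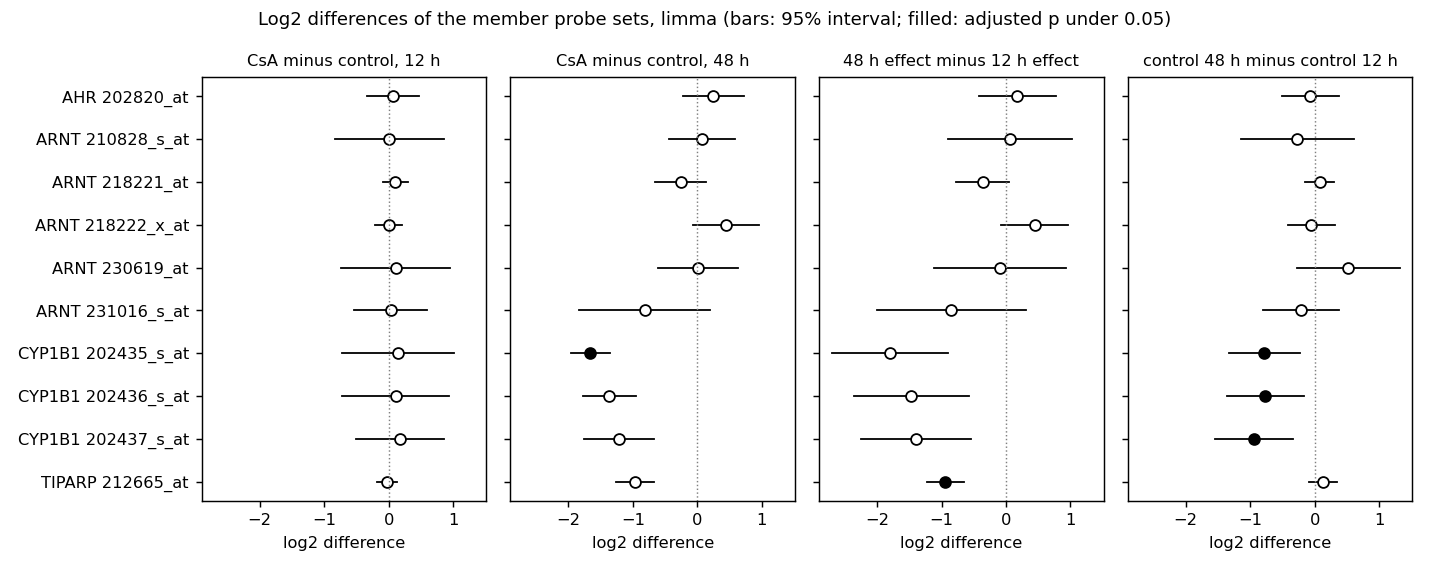
Log2 differences of the 10 tested member probe sets in 4 comparisons, with 95% intervals, filled where the limma adjusted p was under 0.05. The intervals of CYP1B1 and TIPARP lie below 0 at 48 h and in the difference of the effects, and those of AHR and ARNT span 0.

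Genes around the receptor were described from 6 lists. In the fits of each time alone, no list gene was called with CsA at 12 h or at 48 h, where 0.0179% of 11154 genes were called lower and 0% higher at 48 h on their brightest probe sets. These shares use p-values adjusted over all 20625 tested probe sets. The calls below come from the fit of all 12 arrays, in which 8.64% of genes were called lower and 4.92% higher at 48 h. The SE values given below for CsA against control at 48 h are those of the fit of the 48 h arrays alone.

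Among other AHR target genes, 10 of 18 were measured, and 1 was higher and 1 lower with CsA at 48 h, with a median difference of 0.21, against -0.00 over all genes. NEDD9, an adhesion scaffold, had a mean of 7.42 ± 0.60 with CsA at 48 h, against 9.01 ± 0.61 in the control (SD, n = 3), and fell by 1.59 (limma adjusted p = 0.0235 in the fit of all 12 arrays, 0.129 in the 48 h arrays). CYP2S1, another P450 of aromatic compounds, went the other way, 5.64 ± 0.87 with CsA against 4.01 ± 0.14 in the control, a rise of 1.63 from near the filter value (adjusted p = 0.0179, and 0.130 in the 48 h arrays). Its CsA values were 5.05, 5.23 and 6.65, the highest being replicate 3, the array with the low hybridization control. NQO1, a quinone reductase shared with the NRF2 pathway, differed by 0.07 (SE 0.29), and CYP1A2, dim at 4.39 and 4.24, by 0.16 (SE 0.11). ALDH3A1, UGT1A1, UGT1A6, ABCG2, SERPINB2, IGFBP1, PTGS2 and IL1B had no passing probe set with 1 gene.

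Of the 14 measured cofactors and chaperones of AHR, 4 were lower and 1 higher with CsA at 48 h in the fit of all 12 arrays, with a median of -0.11. CUL4B and DDB1, parts of a ubiquitin ligase that AHR can join, fell by 0.50 and 0.29 (limma adjusted p = 0.0245 and 0.0336), and TBL3, named in the same ligase, rose by 0.71 (0.0154). NCOA2, a coactivator, fell by 0.40 (0.0179) and PARP1, a nuclear ADP-ribosyltransferase, by 0.42 (0.0104). The chaperones that hold the unbound receptor gave no call: HSP90AA1 0.16 (SE 0.11), HSP90AB1 -0.09 (SE 0.13) and PTGES3 0.13 (SE 0.10).

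Of the 9 measured ARNT partners and PAS relatives, 2 were higher with CsA at 48 h and none lower in the fit of all 12 arrays, while the list's median was -0.15. EPAS1, the hypoxia-inducible factor HIF-2 alpha, averaged 13.27 ± 0.20 with CsA and 12.60 ± 0.14 in the control (SD, n = 3 each), a rise of 0.68 (limma adjusted p = 0.0187). BMAL1, a clock factor, rose by 0.73 (adjusted p = 0.0303). HIF1A had a difference of 0.16 (SE 0.12). Among 10 measured hypoxia targets 3 were called higher and none lower in that fit, with a median of 0.15: VEGFA by 0.82, NDRG1 by 0.91 and SLC2A1 by 1.28 (limma adjusted p = 0.0260, 0.0251 and 0.0223).

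The 5 measured tryptophan and kynurenine enzymes, a source of natural AHR ligands, had no call with CsA in either fit, with a median of -0.29 at 48 h. IDO1, IDO2, TDO2 and KYNU had no passing probe set. Among 11 measured P450 electron donors and haem enzymes, with a median of -0.04, the fit of all 12 arrays called 1 lower and 1 higher. ALAD, of haem synthesis, fell by 1.20 (limma adjusted p = 0.00385) and ALAS1, which starts it, rose by 0.36 (0.0383). POR, which feeds electrons to microsomal P450s, differed by 0.17 (SE 0.13).

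Time in culture without CsA changed more of these genes. In the fit of the controls, 23.1% of genes were called higher and 20.5% lower at 48 h than at 12 h. Of the 14 cofactors and chaperones 2 were higher and 6 lower in the 48 h control. CREBBP and NCOA1, both coactivators, rose by 0.67 and 0.52 (limma adjusted p = 0.00305 and 0.0330). PARP1 fell by 0.87, HSP90AA1 by 0.83, TBL3 by 0.62 and XPO1, a nuclear export receptor, by 0.56 (adjusted p = 0.000651, 0.000865, 0.0179 and 0.00204). The remaining calls were the chaperones PTGES3 and HSP90AB1, which fell by 0.51 and 0.40.

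Of the 10 other AHR target genes 2 were higher and 2 lower in the 48 h control than at 12 h. STC2, a secreted glycoprotein, rose by 2.13 and SLC7A5, an amino acid transporter, by 1.97 (limma adjusted p = 0.000214 and 0.000177). NQO1 fell by 1.31 (adjusted p = 0.00247), and XDH, a purine oxidase, fell by 1.89 to a mean of 2.34 at the floor, against 4.24 at 12 h (0.00609). All XDH values above 4 were on 12 h arrays, so it passed the filter only through the time at which it was high. Its call is therefore not support for a fall. Of the 9 ARNT partners 1 was higher, EPAS1 by 1.98, and 1 lower, the clock factor BMAL2, which fell by 1.33 (limma adjusted p = 0.000252 and 0.000550).

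The hypoxia targets had 6 of 10 higher and 3 lower in the 48 h control than at 12 h, with a median of 0.67, against 0.03 over all genes. Among the largest, VEGFA rose by 2.52, ADM by 1.88, NDRG1 by 1.48, ANKRD37 by 0.92 and SLC2A1 by 0.87, while LDHA fell by 0.82 (limma adjusted p = 0.000177 to 0.0434). Of the 11 P450 electron donors and haem enzymes 4 were higher and 4 lower. UROS and ALAD, of haem synthesis, rose by 0.74 and 0.69, and CYB5B, CYB5R3, CPOX and CYB5A fell by 0.76, 0.57, 0.53 and 0.49 (limma adjusted p = 0.00110 to 0.0157). Of the 5 tryptophan and kynurenine enzymes KYAT3 rose by 0.69, and KYAT1 and IL4I1 fell by 0.61 and 0.39 (limma adjusted p = 0.00231, 0.0313 and 0.0464).

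**Figure D4:**
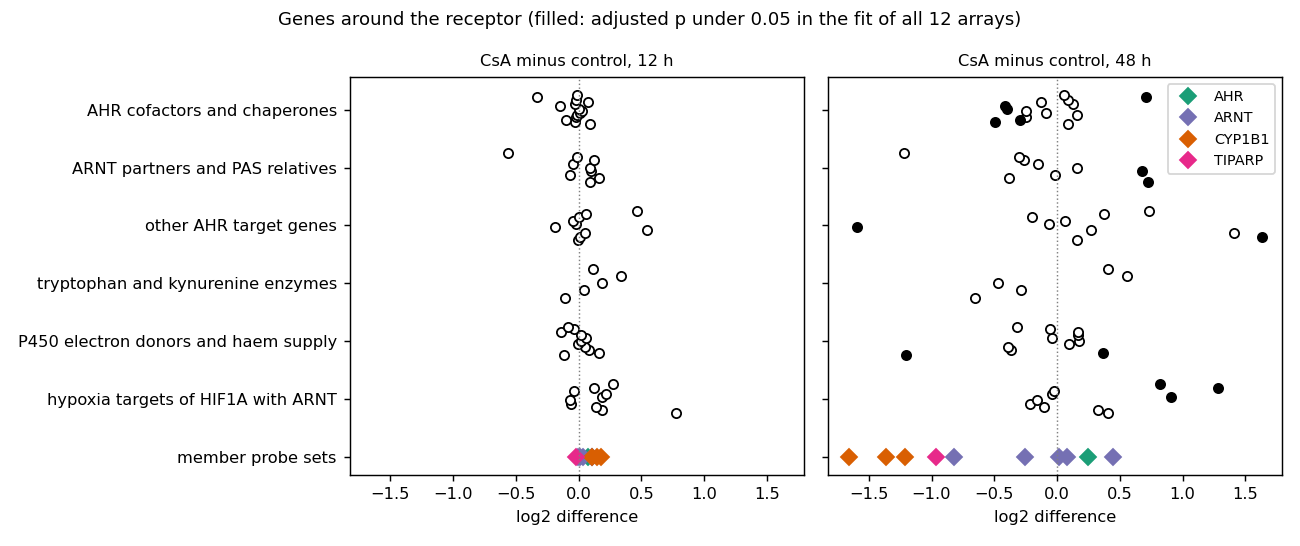
Log2 differences of CsA minus control at 12 h and 48 h for each measured gene of the 6 lists (circles, filled where the limma adjusted p was under 0.05 in the fit of all 12 arrays) and for the 10 member probe sets (diamonds, coloured by gene). At 48 h the CYP1B1 and TIPARP diamonds lie at -0.97 to -1.66, and filled circles lie on both sides of 0.

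The genes whose pattern over the 12 arrays was most like each member's were named from Pearson correlations, as a description of arrays that share groups and time. For CYP1B1 on 202437_s_at these were ELOVL5 (0.984), ITSN1 (0.979) and RECK (0.978). For TIPARP they were RNF145 (0.983), DCPH1 (0.968) and AGT (0.963). The likeness was lower for AHR, whose nearest genes were CARMIL3 (0.790), PDGFB (0.788) and MIEF2 (0.777), and for ARNT on 218221_at they were RIMKLB (0.956), CAPN1 (0.902) and LRP6 (0.897). CYP1B1 and TIPARP correlated with each other at 0.725 to 0.797. This was not particular to them, as ARNT on 231016_s_at correlated with CYP1B1 at 0.774 to 0.836. The other ARNT probe sets and AHR correlated with CYP1B1 at -0.596 to 0.550.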

How the data were processed

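RNA of 12 HK-2 samples was measured on Affymetrix arrays. The authors deposited log2 values made with GCRMA, per the submitters' processing notes. Its version and settings are not stated there. Dim probe sets sit at a floor, where differences are understated. The platform annotation named 1 gene for 41097 of the 54675 probe sets, several for 1801 and none for 11777. Symbols were updated through a RefSeq gene table, and control probe sets were left out. The 12 arrays differed in every one of 66 pairs. Their number limits the precision.

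Probe sets with 1 gene and a value above 4 on at least 3 arrays were tested in limma 3.58.1 (R 4.3.3), two-sided, adjusted by Benjamini-Hochberg with a threshold of 0.05. CsA was compared with control within the arrays of each time, controls of both times within the controls, and the difference of the CsA effects in all 12 arrays. Over all probe sets the 12 h arrays had the smaller median SD, so the fit of all 12 arrays is an alternative. On the tested CYP1B1 probe sets the SD was larger at 12 h, except with CsA on 202437_s_at (0.32 at 12 h, 0.42 at 48 h). The fitting code was run on simulated arrays with independent noise, as a check of the estimated changes and not of the calls in these data. Members and lists were chosen with earlier results of these data known. All member probe sets are described. Each list is counted over the brightest probe set of a gene, and its called genes are named, up to the 6 largest per comparison. At 48 h with CsA, NQO1, CYP1A2, the chaperones, HIF1A and POR, and PTGES3 and HSP90AB1 in the controls, were named after their values were seen. Likeness names the 3 other genes with the highest correlation.

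Pairing by replicate number was checked by correlating deviations from group means: same-numbered arrays gave 0.392 to 0.550 at 12 h and 0.124 to 0.295 between the controls, above the minimum of 0.1, but -0.149 to 0.306 at 48 h. The pairing is taken from the labels' numbers.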

Additional observations from a re-analysis of the deposited data

Results flagged for a closer look

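The effect of CsA on TIPARP differed between the 2 times by the test of the difference itself. CsA minus control was -0.97 at 48 h and -0.02 at 12 h, a difference of -0.94 (SE 0.13, limma adjusted p = 0.0348). At 48 h every CsA array lay below every control array, so CsA is lower in 3 of 3 pairs however the arrays are paired. By replicate number the differences were -1.16, -1.03 and -0.71. Same-numbered arrays correlated at only -0.149 to 0.306 at 48 h, so the size of each gap depends on a pairing by label alone. CsA replicate 3 is the array with the low hybridization control. Without that array the difference of the effects was -1.003 (limma adjusted p = 0.00962). Of the 12 fits with 1 array left out, only 3 kept the call, and the limma adjusted p reached 0.110. The call was also lost without both 48 h arrays numbered 1. The part of array quality in this result was not tested beyond these values.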

How the results depend on the processing

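With CsA against control at 48 h, 1 member probe set was called lower as reported. The count was 4 with all 12 arrays in 1 fit and with array weights, 3 with a filter at 6 and with trend and robust priors, 0 with the replicate block, with no filter and without both 48 h arrays numbered 1, and 0 to 1 when 1 array was left out. Member counts leave out the fits on brightest probe sets and on gene means. With those fits included, TIPARP at 48 h was called in 6 of 17 alternatives, and in 0 of the 6 with 1 array left out. For the difference of the effects the count of 1 became 3 with the replicate block within time and with array weights, 0 without both 48 h arrays numbered 1, and 0 to 1 with 1 array left out. For control at 48 h against 12 h the count of 3 became 1 with all 12 arrays in 1 fit and 0 with no filter or without the 48 h control numbered 1, and was 0 to 3 with 1 array left out. It stayed 3 with the replicate number as a block, an alternative added after the data were seen. The 48 h samples share only a number, and not every array correlated best with its own number; with that replicate block CYP1B1 on 202435_s_at had a limma adjusted p of 0.0941. At 12 h the count was 0 under all alternatives run. No called member value changed sign. The CYP1B1 and TIPARP values at 48 h were negative in every alternative, from -1.73 to -0.87. Over all probe sets, the 48 h count was 8, against 2620 with all 12 arrays in 1 fit, 1998 with array weights, 133 with trend and robust priors, 82 with a filter at 6, 123 on brightest probe sets, 88 on gene means, 1 with no filter, 0 with the replicate block or without both arrays numbered 1, and 0 to 23 with 1 array left out. The difference of the effects gave 66, against 25 with array weights by group, 35 to 1253 under the other settings, 4 without both 48 h arrays numbered 1 and 0 to 482 with 1 array left out. The time comparison of the controls gave 8101, against 5295 on brightest probe sets and 5114 on gene means. The cause of these shifts was not tested. In the fits on brightest probe sets and on gene means, the adjustment ran over those 11154 genes alone. Median centring and quantile normalization moved the median of all probe sets by less than 0.1. Leaving out both 48 h arrays numbered 1 does not apply to the 12 h arrays. A block of replicate within time could not be fitted in the controls alone. The low number of arrays limits precision, and CYP1A1 and AHRR lay too near the floor for any difference.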

Other observations

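The antisense transcripts annotated beside these genes were looked up after the values were seen. CYP1B1-AS1 read 1.96 to 2.00 and 2.49 to 2.53 on its 2 probe sets over the 12 arrays, and TIPARP-AS1 read 2.43 to 2.49, so each stayed at the floor in all groups.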
